A study of Mus musculus with 8 samples.

Results

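The genes described here are 9 of the 24538 gene identifiers measured in every RNA library, chosen by name as the kinases, adaptors and receptors that act first in T-cell antigen signalling. The kinases are Lck, Fyn, Txk and Zap70, the adaptors Lat and Lcp2, and the surface receptors Cd5, Cd6 and Cd7. Their RNA was measured as TPM (transcripts per 1000000), and the accessible chromatin around them was taken from ATAC-seq peaks that lie in each gene or within 50 kb of it.

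Both genotypes were grown and treated in the same way. Bone marrow LSK cells (blood progenitors defined by surface Sca-1 and c-Kit without mature lineage markers) were cultured on OP9-DL1, a stromal line carrying the Notch ligand Delta-like 1, and 4-OH tamoxifen was given on days 3 to 5. Tcf1Lef1KO cells came from mice with an inducible Cre (CreER+) and floxed Tcf7 and Lef1 alleles, and WT cells came from CreER+ mice without the floxed alleles. DN1 cells, the earliest stage without CD4 and CD8, were sorted on day 7 as lineage-negative, CD44-high, CD25-negative and c-Kit-positive, giving 2 Tcf1Lef1KO and 2 WT libraries for RNA and as many for ATAC-seq, 8 in all. Separate animals or cultures are not named in the labels for the replicates, so p-values measure the spread between these libraries, which may be technical. The promoter that drives CreER is not given in the labels.

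In a T cell, LCK phosphorylates the CD3 chains of the antigen receptor, ZAP-70 binds the phosphorylated chains, and ZAP-70 then phosphorylates the adaptors LAT and SLP-76 (the product of Lcp2), on which phospholipase C and exchange factors assemble. FYN is a second Src family kinase of this pathway, and TXK is a Tec family kinase. CD5 and CD6 are related scavenger-type receptors that dampen or tune the signal, and CD7 is an immunoglobulin-type receptor of early T and NK cells. DN1 cells carry no complete antigen receptor, so the RNA of these genes was measured here before the receptor is assembled.

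Lck, Lat, Lcp2, Cd5 and Cd7 fell in Tcf1Lef1KO cells, to between 0.234 (Lck) and 0.478 (Lcp2) of the WT mean TPM. Fyn and Cd6 did not pass the test, and Txk and Zap70 were too low to be tested. Of the 7 tested genes 5 were therefore lower and 0 higher, with limma and an adjusted p under 0.05 over 13228 genes. Across all tested genes, 14.7% were lower and 25.2% were higher in Tcf1Lef1KO. The median log2 change of the 7 was −1.38, beside 0.09 over all tested genes. In bulk RNA, fewer cells of a type and less RNA per cell cannot be told apart.

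**Figure D1:**
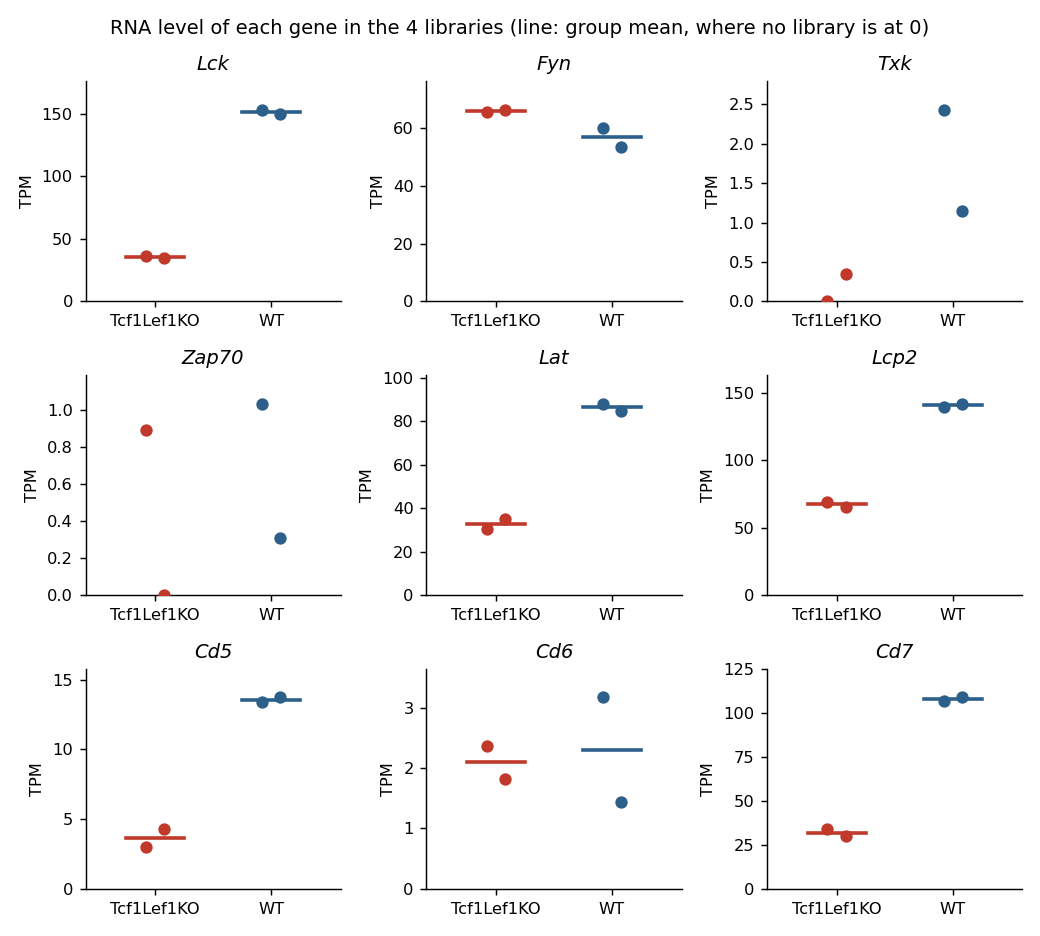
RNA level (TPM) of the 9 genes, 1 point per library, with the 2 Tcf1Lef1KO libraries left of the 2 WT libraries; lines are group means, drawn only where no library is listed at 0. The Tcf1Lef1KO points lie below the WT points for Lck, Txk, Lat, Lcp2, Cd5 and Cd7, above them for Fyn, and among them for Zap70 and Cd6.

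**Figure D2:**
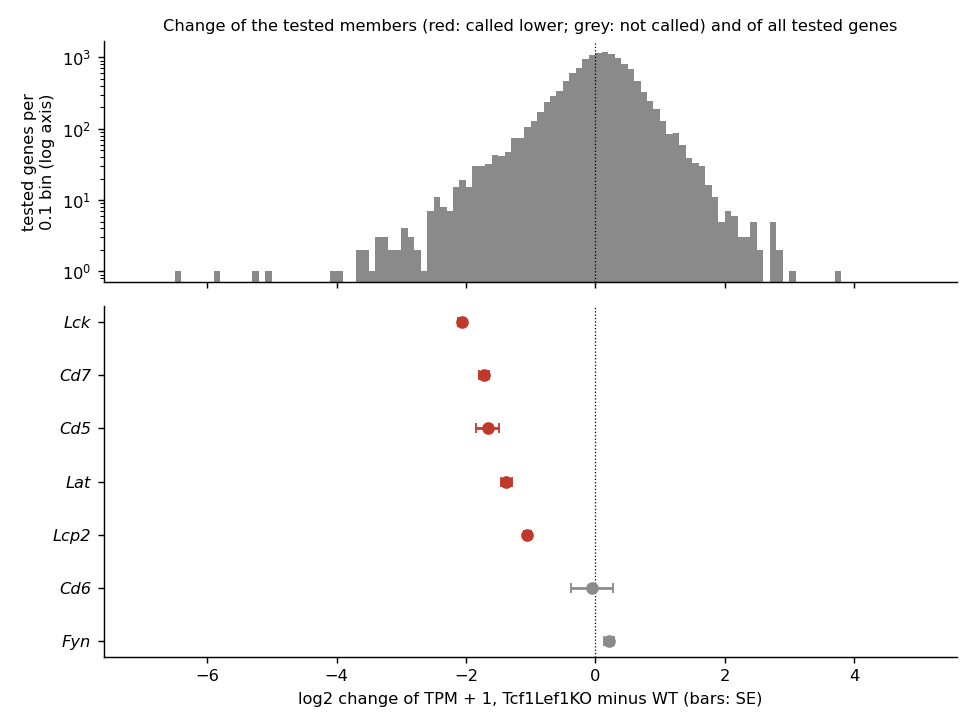
Lower panel: log2 change of TPM + 1, Tcf1Lef1KO minus WT, for the 7 tested genes with standard errors (red, called lower; grey, not called). Upper panel: the same quantity over all 13228 tested genes, as the number of genes per bin on a log axis; Lck at −2.07 has 86 tested genes below it.

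The targeted genes were examined first. Tcf7, which encodes TCF1, stood at 13.2 and 12.4 TPM in the Tcf1Lef1KO libraries, against 518 and 510 TPM in the WT libraries, and limma gave an adjusted p of 8.64e-06. Lef1 was low in every library, at 1.46 and 1.57 TPM in Tcf1Lef1KO and 1.66 and 1.099 TPM in WT, with overlapping groups and a limma adjusted p of 0.803. Which exons are floxed is not given in the labels, so a level over the whole gene need not show the deletion. The 4 RNA libraries each listed between 13050 and 13314 genes at 1 TPM or more.

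Lck had the highest mean TPM of the 9 genes in WT and the largest fall among the 7 tested. It stood at 36.2 and 34.6 TPM in Tcf1Lef1KO, against 153 and 150 TPM in WT. The groups do not overlap and lie far apart relative to their spread, with means of 35.4 ± 1.147 TPM in Tcf1Lef1KO and 151 ± 2.17 TPM in WT (SD, n = 2 each). The log2 change was −2.07 (SE 0.055), with a limma adjusted p of 0.000111. On the TPM scale its WT mean exceeded that of 94.4% of tested genes, and its Tcf1Lef1KO mean exceeded that of 67.7%.

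Fyn, the other Src family kinase among the 9, was not lower in Tcf1Lef1KO. It stood at 65.5 and 66.4 TPM in Tcf1Lef1KO, against 60.1 and 53.6 TPM in WT. Both Tcf1Lef1KO libraries lie above both WT libraries, by a small margin. The log2 change was 0.21 (SE 0.073), and the limma adjusted p of 0.069 missed the threshold. In TPM, Fyn averaged 66.0 ± 0.62 in Tcf1Lef1KO, above Lck there, and 56.9 ± 4.58 in WT, where Lck was higher (SD, n = 2 each).

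Txk was listed at 0 and 0.345 TPM in Tcf1Lef1KO, against 2.43 and 1.14 TPM in WT. The groups do not overlap, but its mean over the 4 libraries was 0.980 TPM, just under the minimum of 1 TPM for the test. Zap70 was at 0.891 and 0 TPM in Tcf1Lef1KO, against 1.03 and 0.309 TPM in WT. The Zap70 groups overlap, and every value is at or below about 1 TPM, in WT as well. With no filter on low values, limma gave Txk a log2 change of −1.23 with an adjusted p of 0.174, and Zap70 a change of −0.25 with an adjusted p of 0.854.

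Lat encodes the membrane adaptor on which the signalling complex is built. Its level was 30.4 and 35.1 TPM in Tcf1Lef1KO, against 88.2 and 85.0 TPM in WT. The groups do not overlap, and the Tcf1Lef1KO mean was 0.378 of the WT mean. The log2 change was −1.38 (SE 0.085, limma adjusted p = 0.000516).

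Lcp2 encodes SLP-76, the cytosolic adaptor that joins LAT through the linker GADS. It stood at 69.2 and 65.4 TPM in Tcf1Lef1KO, against 139 and 142 TPM in WT. Its Tcf1Lef1KO libraries sit close together and below both WT libraries. The log2 change of −1.05 (SE 0.053, limma adjusted p = 0.000349) is the smallest of the 5 falls, and in Tcf1Lef1KO Lcp2 had the highest mean TPM of the 9 genes.

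Among the receptors, Cd7 stood at 34.1 and 30.01 TPM in Tcf1Lef1KO, against 107 and 109 TPM in WT. The groups do not overlap, and the Tcf1Lef1KO mean was 0.297 of the WT mean (log2 change −1.72, SE 0.077, limma adjusted p = 0.000269). Cd5 was lower in level, at 2.99 and 4.27 TPM in Tcf1Lef1KO, against 13.4 and 13.7 TPM in WT. Its groups do not overlap either, and the log2 change was −1.67 (SE 0.18, limma adjusted p = 0.00215). Fold changes on log2(TPM + 1) understate the change of low genes, and on plain TPM the Cd5 mean in Tcf1Lef1KO was 0.268 of the WT mean.

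Cd6, which neighbours Cd5 on chromosome 19, stood at 2.37 and 1.82 TPM in Tcf1Lef1KO, against 3.17 and 1.44 TPM in WT. One WT library was the highest of the 4 and the other the lowest, so the groups overlap. The log2 change was −0.05 (SE 0.33, limma adjusted p = 0.917), and this standard error, the widest of the 7, leaves room for a moderate change in either direction.

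By mean TPM, the order in Tcf1Lef1KO was Lcp2, Fyn, Lck, Lat, Cd7, Cd5, Cd6, Zap70 and Txk. There the ranges of Lcp2 and Fyn overlap, as do those of Lck and Lat, of Lat and Cd7, and of Zap70 and Txk. In WT the order was Lck, Lcp2, Cd7, Lat, Fyn, Cd5, Cd6, Txk and Zap70. The WT ranges of Cd6 and Txk overlap, and no other neighbours in that order overlap. Lck thus came after Lcp2 and Fyn in Tcf1Lef1KO and ahead of both in WT.

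For each tested gene, the genes of similar level (mean TPM within a factor of 2) with the closest pattern over the 4 libraries were taken as a description. Lck was closest to Ppp1r15a, at 37.8 and 37.1 TPM in Tcf1Lef1KO against 148 and 158 TPM in WT, and next to Klf6. Lat was closest to Rgs2 and Pink1, Lcp2 to Hmha1 and Kdm5b, Cd5 to Klf11 and Fam20a, and Cd7 to Fosb and Mir142b. The root-mean-square distances of the closest genes, in log2(TPM + 1) after centring, lay between 0.0087 (Trmt2a, for Fyn) and 0.058 (Fosb, for Cd7). For Cd6 the closest were Zbtb46 and Zfp433. None of these nearest genes belongs to the lists of signalling genes below, and with 4 libraries in 2 groups a pattern mostly reflects the size of the difference between genotypes.

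The wider proximal pathway was described with a list of 34 further genes, of which 32 were tested. In Tcf1Lef1KO 21 were lower, 1 was higher and 10 fell short of the threshold, and the list's median change was −0.61 on the log2 scale. The largest falls were those of Trat1, a transmembrane adaptor of the receptor complex, Sla2, an adaptor that limits receptor signalling, and Rasgrp1, the exchange factor that activates RAS. Trat1 was at 2.62 and 3.17 TPM in Tcf1Lef1KO, against 29.4 and 38.7 TPM in WT. Sla2 was at 2.07 and 3.23 TPM in Tcf1Lef1KO, against 24.3 and 29.6 TPM in WT. Rasgrp1 was at 2.002 and 1.76 TPM in Tcf1Lef1KO, against 12.6 and 10.8 TPM in WT. In all 3 genes the groups are far apart, with log2 changes of −3.16, −2.95 and −2.14 and limma adjusted p of 0.000418, 0.000665 and 0.000932.

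Other adaptors of the pathway fell as well. Grap2, which encodes the GADS linker between them, was at 3.80 and 3.13 TPM in Tcf1Lef1KO, against 15.1 and 14.1 TPM in WT (log2 change −1.81, limma adjusted p = 0.00104). Fyb, the adhesion adaptor ADAP, was at 65.2 and 65.5 TPM in Tcf1Lef1KO, against 144 and 140 TPM in WT (log2 change −1.10, limma adjusted p = 0.000251). Skap1, the partner of ADAP, also fell, with a log2 change of −2.03 (limma adjusted p = 0.00532, and 0.076 with no filter).

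The most abundant pathway genes that did not pass the test were Csk, Grb2 and Ptpn11, though the result for Grb2 depended on the setting. Csk, the kinase that restrains Src family members, was at 140 and 147 TPM in Tcf1Lef1KO, against 154 and 145 TPM in WT. Grb2, a general adaptor, was at 113 and 89.8 TPM in Tcf1Lef1KO, against 128 and 127 TPM in WT, with a limma adjusted p of 0.0615. Grb2 passed as lower with the replicate block (0.0435), with FPKM (0.0467), under the 3 other scalings (0.0225 to 0.0371) and without Tcf1Lef1KO replicate 1 (0.0105), and Csk passed as lower with quantile normalization (0.0295). Ptpn11, the phosphatase SHP-2, was at 63.2 and 44.3 TPM in Tcf1Lef1KO, against 32.5 and 45.4 TPM in WT, and its groups overlap. Dok1, an inhibitory adaptor, was the 1 gene of the list called higher, with 13.9 and 14.6 TPM in Tcf1Lef1KO and 11.02 and 9.52 TPM in WT. Its limma adjusted p of 0.0402 lies close to the threshold and rose to 0.0629 with the replicate block, and it passed in none of the 4 fits that left out 1 library.

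**Figure D3:**
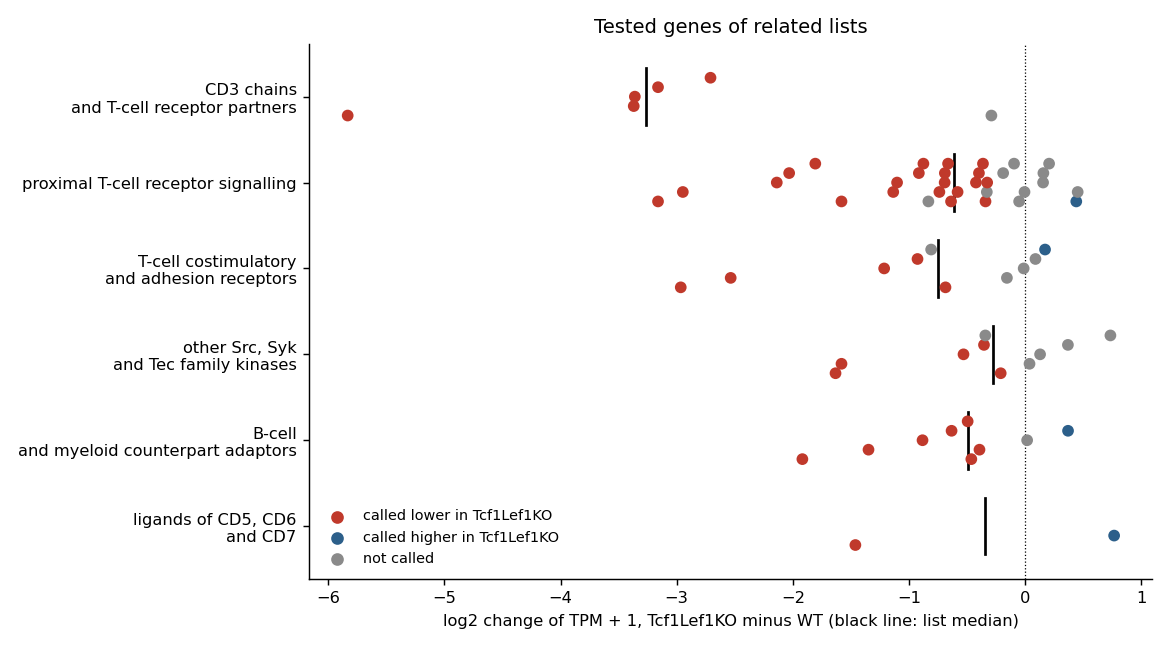
Log2 change of TPM + 1, Tcf1Lef1KO minus WT, for each tested gene of 6 related lists, 1 point per gene, with a black line at each list's median. Red points were called lower, blue points higher and grey points not called; the CD3 list has its median at −3.26 and the proximal signalling list at −0.61.

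Among the other kinases of the Src, Syk and Tec families, 5 of 10 tested genes were lower and 0 higher. Blk, a Src family kinase of B and early T cells, was at 1.42 and 1.27 TPM in Tcf1Lef1KO, against 6.29 and 6.24 TPM in WT. That difference gave a log2 change of −1.63 and a limma adjusted p of 0.00247. Tec had a smaller log2 change of −0.36 (limma adjusted p = 0.0179), a call lost under 4 alternatives: no filter, no intensity trend, and without Tcf1Lef1KO replicate 2 or WT replicate 2 (0.0565 to 0.108). Syk, the kinase most closely related to ZAP-70, was at 80.4 and 79.3 TPM in Tcf1Lef1KO, against 93.4 and 91.9 TPM in WT. Its log2 change was −0.21 with a limma adjusted p of 0.022, but it missed the threshold whenever 1 library was left out and without the intensity trend (0.0675 to 0.0899). On the TPM scale Syk was far above Zap70 in all 4 libraries. Lyn was at 80.2 and 82.1 TPM in Tcf1Lef1KO, against 80.1 and 78.1 TPM in WT, and neither it nor Btk nor Fgr passed.

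The adaptors that do comparable work in B and myeloid cells were mostly lower too. Of 9 tested, 7 were lower and 1 higher, with a median log2 change of −0.50. Clnk, a relative of SLP-76, was at 9.36 and 8.77 TPM in Tcf1Lef1KO, against 39.6 and 34.6 TPM in WT. Lat2, a relative of LAT, was at 57.0 and 68.0 TPM in Tcf1Lef1KO, against 111 and 121 TPM in WT. These correspond to log2 changes of −1.92 and −0.88, with limma adjusted p of 0.000434 and 0.00216 (0.0629 for Lat2 with no filter). Grap and Themis2 were also lower, Themis2 not with no filter or without WT replicate 2 (0.0817 and 0.0501). Skap2, the relative of Skap1 found in myeloid cells, was the 1 gene called higher, at 117 and 117 TPM in Tcf1Lef1KO and 88.1 and 92.4 TPM in WT (log2 change 0.37, limma adjusted p = 0.00397). Hcls1 was at 172 and 194 TPM in Tcf1Lef1KO and 186 and 176 TPM in WT and did not pass.

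Upstream of the kinases, the CD3 chains were lower by far. Cd3g was at 1.07 and 0.342 TPM in Tcf1Lef1KO, against 88.2 and 99.9 TPM in WT (log2 change −5.83, limma adjusted p = 0.000204). Cd247, the zeta chain that ZAP-70 binds, was at 0.578 and 2.16 TPM in Tcf1Lef1KO, against 20.1 and 23.97 TPM in WT (limma adjusted p = 0.00175, and 0.0623 with no filter). Cd3e was listed at 0 in both Tcf1Lef1KO libraries, against 9.69 and 8.995 TPM in WT. Of the 9 genes in this list 6 were tested and 5 of them were lower; Cd8a was the gene that did not pass, at 0.823 and 1.12 TPM in Tcf1Lef1KO and 0.942 and 1.98 TPM in WT. Cd4, Cd8b1 and Ptcra were under the filter.

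The costimulatory and adhesion receptors were split, with 5 lower, 1 higher and 4 not passing among 10 tested. Thy1, a surface glycoprotein of the T lineage, was at 4.37 and 4.79 TPM in Tcf1Lef1KO, against 44.8 and 40.4 TPM in WT. Ctla4, an inhibitory receptor, was at 1.17 and 1.73 TPM in Tcf1Lef1KO, against 11.7 and 14.7 TPM in WT. Their log2 changes were −2.97 and −2.54, with limma adjusted p of 0.000204 and 0.00101. Cd28 and Cd244 were also lower, though Cd28 missed the threshold with no filter and in 3 of the 4 fits that left out 1 library, all but that without Tcf1Lef1KO replicate 1 (0.0525 to 0.062). Spn (CD43) was called higher, at 332 and 354 TPM in Tcf1Lef1KO and 307 and 302 TPM in WT, but its limma adjusted p of 0.0304 became 0.808 with quantile normalization, and it missed the threshold in 9 of 14 alternatives, among them all fits that left out 1 library except that without Tcf1Lef1KO replicate 1. Cd48, Cd27 and Ly9 did not pass.

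Of the reported ligands of these receptors, 1 was lower and 1 higher. Cd72, which encodes a ligand of CD5, was at 24.3 and 24.8 TPM in Tcf1Lef1KO, against 66.1 and 72.7 TPM in WT (log2 change −1.46, limma adjusted p = 0.000369). Alcam, which encodes a ligand of CD6, was at 12.9 and 15.5 TPM in Tcf1Lef1KO, against 7.77 and 8.05 TPM in WT (log2 change 0.77, limma adjusted p = 0.0098). The Alcam call was lost with no filter (0.0748) and without Tcf1Lef1KO replicate 2, WT replicate 1 or WT replicate 2 (0.0523 to 0.0611). The other 3 genes of this list, among them the CD7 ligand genes Sectm1a and Sectm1b, were under the filter.

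Markers of other cells moved alongside these falls. Myeloid markers were higher for 9 of 15 tested, beside 25.2% of all tested genes, and lower for 1, Itgam. Their summed level was 3909 and 3836 TPM in Tcf1Lef1KO, against 2137 and 2116 TPM in WT. Much of that sum is Mpo, at 2256 and 2196 TPM in Tcf1Lef1KO and 980 and 979 TPM in WT. Lyz2, S100a8 and Csf1r were among those that did not pass. Mast cell and basophil markers were higher for 10 of 13 and lower for 2, with sums of 734 and 728 TPM in Tcf1Lef1KO and 517 and 499 TPM in WT. Genes of stromal cells were higher for 8 of 11 tested, with sums of 1737 and 1447 TPM in Tcf1Lef1KO and 819 and 849 TPM in WT, Dll1, the gene OP9-DL1 was made to carry, among them. The part of these shifts in the falls of Lck, Lat, Lcp2, Cd5 and Cd7 was not tested.

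Markers of NK and innate lymphoid cells, which also use Lck, Lat and Cd7, were lower for 7 of 10 tested and higher for 0. They summed to 411 and 417 TPM in Tcf1Lef1KO, against 873 and 887 TPM in WT. Most of that gap lies in the granzyme genes Gzmb and Gzma. Gzmb was at 199 and 191 TPM in Tcf1Lef1KO and 507 and 524 TPM in WT. Gzma was at 35.8 and 37.2 TPM in Tcf1Lef1KO and 134 and 126 TPM in WT. Nkg7, at 121 and 131 TPM in Tcf1Lef1KO and 125 and 126 TPM in WT, did not pass, nor did Klrd1 and Klrk1. Dendritic cell markers were lower for 5 of 9 and higher for 1, with sums of 261 and 288 TPM in Tcf1Lef1KO and 415 and 399 TPM in WT. Of the B-lineage markers 3 of 10 were tested, Ebf1 being higher and Cd72 lower, and they summed to 51.7 and 48.1 TPM in Tcf1Lef1KO against 81.4 and 88.6 TPM in WT. That order rests on Cd72: the other 9 genes summed to 27.4 and 23.3 TPM in Tcf1Lef1KO against 15.3 and 15.9 TPM in WT. How far the share of each cell type set the levels of the 9 genes was not tested.

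The label of CD25-negative DN1 cells was set against the genes that define later stages. Il2ra, which encodes CD25, was at 0.658 and 0.393 TPM in Tcf1Lef1KO, against 136 and 133 TPM in WT, although both groups were sorted as CD25-negative. Bcl11b and Rag1, of the following DN2 and DN3 stages, were at 0.334 and 0.238 TPM and at 1.003 and 1.04 TPM in Tcf1Lef1KO, against 9.30 and 8.16 TPM and 7.72 and 7.15 TPM in WT. Cd4, Cd8b1 and Ptcra were under 1 TPM in all 4 libraries. Of the 11 listed later T-cell markers, 8 were found in the data. Their summed level was 5.57 and 5.86 TPM in Tcf1Lef1KO, against 161 and 156 TPM in WT. Most of the WT sum is Il2ra. The part of these markers in the falls of Lck, Lat and Cd5 was not tested.

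In chromatin, peaks of both genotypes lay over the annotated starts of most of these genes, as they do for most genes. Peaks of the 4 ATAC lists that overlap were joined into regions, 134830 over the genome. A region was counted as shared when all 4 lists have a peak there (59.1% of all regions), as Tcf1Lef1KO alone when both Tcf1Lef1KO lists and neither WT list have one (6.63%), and as WT alone in the opposite case (4.79%). A shared region covers the annotated start of 8 of the 9 genes, all but Zap70. Of all tested genes with 1 gene model, 80.6% have a shared region over the start. The depth of the ATAC libraries is unknown from peak lists, and the genotypes' peaks were therefore not tested against each other.

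**Figure D4:**
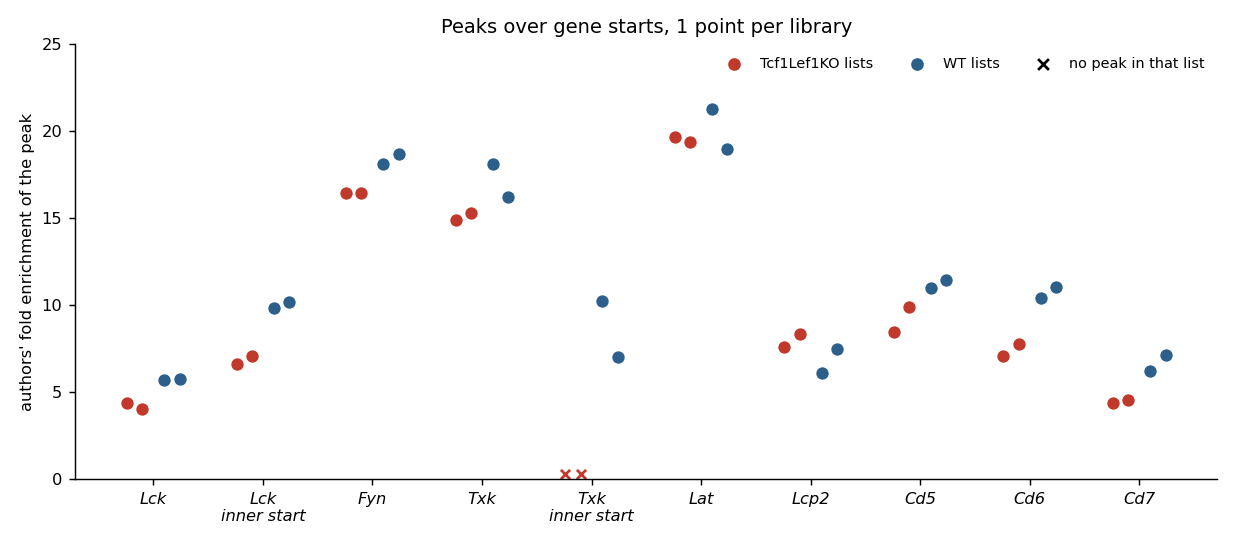
The authors' fold enrichment of the peak over each gene start, 1 point per list, with Tcf1Lef1KO left of WT; crosses mark a list with no peak there. Every start shown has a peak in all 4 lists except the inner start of Txk, which has none in the Tcf1Lef1KO lists; Zap70 has no peak over any start and is not shown.

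Fold enrichment over local background, given by the authors' peak caller, describes each list on its own. At the start of Lck (chr4:129548344-129573641, minus strand, mm10) it was 4.37 and 4.04 in Tcf1Lef1KO and 5.68 and 5.77 in WT. At the start of Cd7 (chr11:121036749-121039478, minus strand) it was 4.41 and 4.58 in Tcf1Lef1KO and 6.21 and 7.14 in WT. For both genes the peak is a modest one in each list. At the start of Lat (chr7:126363828-126369568, minus strand) it was 19.6 and 19.4 in Tcf1Lef1KO and 21.3 and 18.9 in WT, so the ranges overlap. The start of Lcp2 (chr11:34047201-34092280, plus strand) had 7.59 and 8.36 in Tcf1Lef1KO and 6.09 and 7.499 in WT. For Lcp2 the lower Tcf1Lef1KO value, 7.59, and the higher WT value, 7.499, nearly meet, so no order of the genotypes is read from them.

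Fyn (chr10:39369799-39565374, plus strand) had 16.5 and 16.4 at its start in Tcf1Lef1KO and 18.1 and 18.7 in WT. Cd5 (chr19:10718143-10738974, minus strand) had 8.46 and 9.92 in Tcf1Lef1KO and 10.997 and 11.4 in WT, and Cd6 (chr19:10789339-10830058, minus strand) had 7.08 and 7.75 in Tcf1Lef1KO and 10.4 and 11.1 in WT. The Cd6 start, whose RNA did not pass the test, thus showed a gap between the lists as the Cd5 start did.

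RefSeq lists an outer start for Lck and an inner one 15269 bases into the gene, and the gene is known to be transcribed from a distal and a proximal promoter. The 250 bases before each start (GRCm38.p6, the build of the files) are shown because Lck had the largest fall among the tested genes. They are printed 5′ to 3′ along the minus strand, with capitals marking matches, on either strand, to short words bound by 4 factor families. For TCF/LEF the words were CTTTGAA with its variants CTTTGAT as well as CTTTGTA together with CTTTGTT. The RUNX word was TGTGGT, the ETS word was AGGAAG, and the GATA words were AGATAA along with TGATAA. No TCF/LEF word contains a word of another family.
Lck outer start, chr4:129573642-129573891: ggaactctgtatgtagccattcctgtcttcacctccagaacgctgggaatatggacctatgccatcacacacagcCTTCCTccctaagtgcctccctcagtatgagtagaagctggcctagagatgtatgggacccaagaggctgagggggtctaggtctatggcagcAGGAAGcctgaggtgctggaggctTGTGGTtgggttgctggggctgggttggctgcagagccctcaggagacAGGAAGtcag
Lck inner start, chr4:129558373-129558622: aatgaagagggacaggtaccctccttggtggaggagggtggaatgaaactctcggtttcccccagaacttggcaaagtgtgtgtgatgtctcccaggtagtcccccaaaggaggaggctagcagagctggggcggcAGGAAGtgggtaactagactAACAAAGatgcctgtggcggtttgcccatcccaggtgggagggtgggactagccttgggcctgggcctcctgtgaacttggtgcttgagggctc
The outer sequence has no TCF/LEF word, 3 ETS words and 1 RUNX word. The inner sequence has 1 TCF/LEF word, AACAAAG, from 94 to 88 bases before the start, and 1 ETS word. Of 32851 RefSeq promoter sequences of this length, 14.8% hold a TCF/LEF word, 14.0% a RUNX word, 29.5% an ETS word and 16.6% a GATA word, so a match is a description and not a bound site.

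The region over the inner start of Lck, chr4:129558241-129558873, is shared, with a fold enrichment of 6.61 and 7.06 in Tcf1Lef1KO and 9.84 and 10.2 in WT. The next region inward, chr4:129556300-129556796, had 10.2 and 9.58 in Tcf1Lef1KO and 5.85 and 4.91 in WT. The neighbouring regions thus stood in opposite orders between the genotypes' lists. A region at chr4:129555451-129555610, still inside the gene, was found in Tcf1Lef1KO alone, with fold enrichments of 3.26 and 3.44, and another lay 15.7 kb before the start. No WT-alone region lay in the window of Lck.

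Among the 7 genes with RefSeq promoter entries, Txk alone had a start in a region of 1 genotype. Its outer start (chr5:72695978-72752777, minus strand) is covered by a shared region, with fold enrichments of 14.9 and 15.3 in Tcf1Lef1KO and 18.1 and 16.2 in WT. Its inner start, 16175 bases into the gene, lies in a WT-alone region, chr5:72736526-72736787, with fold enrichments of 10.2 and 7.04 in the WT lists and no peak in either Tcf1Lef1KO list. The 250 bases before the inner start are shown for that reason, along the minus strand, with the same marking.
Txk inner start, chr5:72736603-72736852: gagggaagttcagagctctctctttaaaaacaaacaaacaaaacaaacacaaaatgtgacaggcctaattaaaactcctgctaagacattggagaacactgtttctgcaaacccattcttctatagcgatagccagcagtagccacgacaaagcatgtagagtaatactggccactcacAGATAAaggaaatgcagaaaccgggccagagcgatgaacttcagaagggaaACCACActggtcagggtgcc
They hold a GATA word from 71 to 66 bases and a RUNX word, ACCACA, from 20 to 15 bases before the start, and no TCF/LEF word. Both words lie inside the WT-alone region.

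At the other starts with a sequence, TCF/LEF words were found at some and not at others. Fyn and the outer start of Txk have 1 each, shown with 15 bases on either side, while Lat, Lcp2, Cd5 and the 3 RefSeq starts of Zap70 have none.
Fyn, chr10:39369688-39369724, plus strand: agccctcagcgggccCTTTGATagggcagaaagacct
Txk outer start, chr5:72752949-72752985, minus strand: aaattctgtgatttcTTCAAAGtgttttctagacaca
The sequence before the start of Cd5, which fell, holds 2 ETS words and none of the other 3 families.
Cd5, chr19:10738975-10739224, minus strand: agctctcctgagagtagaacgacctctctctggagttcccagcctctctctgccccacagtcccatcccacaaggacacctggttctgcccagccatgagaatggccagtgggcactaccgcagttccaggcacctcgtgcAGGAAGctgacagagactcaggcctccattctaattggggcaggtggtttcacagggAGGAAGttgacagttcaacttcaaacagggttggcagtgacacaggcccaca
RefSeq promoter entries were found for 7 of the 9 genes, with 11 starts in all; Cd6 and Cd7 were not among them. All the sequences shown were chosen after values of these genes or regions were seen.

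Zap70 (chr1:36761798-36782820, plus strand) has no region within 1 kb of any of its 3 RefSeq starts. Inside the gene a shared region, chr1:36766485-36767245, had fold enrichments of 14.99 and 15.01 in Tcf1Lef1KO and 17.3 and 16.8 in WT. Right beside it, 5.62 kb from the start, lay a WT-alone region, chr1:36767297-36767523, with fold enrichments of 6.42 and 6.15. Another pair of WT-alone regions lay 62.6 and 63.1 kb downstream of the start. No Tcf1Lef1KO-alone region lay in the window of Zap70, the 1 gene of the 9 for which that is so.

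**Figure D5:**
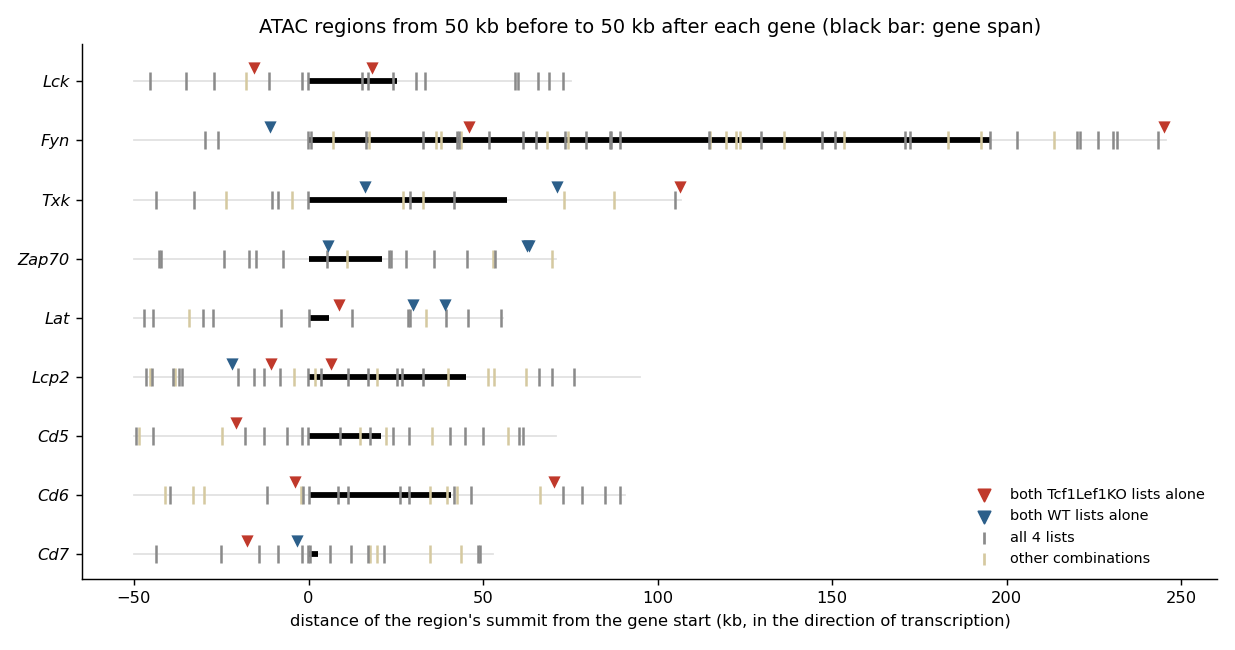
Position of every ATAC region within 50 kb of the 9 genes, in kb from the gene start in the direction of transcription; black bars are gene spans. Red triangles mark regions in both Tcf1Lef1KO lists alone, blue triangles regions in both WT lists alone, grey ticks regions in all 4 lists and pale ticks other combinations; blue triangles are absent for Lck, Cd5 and Cd6, and red ones for Zap70.

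Over the 9 windows together there were 209 regions, of which 135 were shared (64.6%), 11 were Tcf1Lef1KO alone (5.26%) and 10 were WT alone (4.78%). These shares are near those of the whole genome given above. The remaining 53 regions (25.4%) were other combinations, such as both lists of 1 genotype and 1 list of the other. With peaks of −log10 q of at least 10 alone, the windows held 3 Tcf1Lef1KO-alone regions (1.83%) and 16 WT-alone regions (9.76%), beside 5.95% and 5.36% of all regions at that threshold, so the balance of the one-genotype regions depends on the threshold. A Tcf1Lef1KO-alone region lay in the window of 8 genes and a WT-alone region in that of 6, and over all tested genes with 1 model 57.6% and 44.6% have one, in windows whose width varies with the gene. Regions within a window need not act on the gene: 112 of the 209 have the start of one of the 9 genes as their nearest, and 9 lie in both the Cd5 and the Cd6 window.

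Of the genes that fell, Cd7, Lcp2 and Lat have WT-alone regions in their windows and Lck and Cd5 have none. The region of Cd7 lies 3.19 kb before its start, at chr11:121042601-121042813, with fold enrichments of 4.12 and 4.43. Lcp2 has one 21.98 kb before its start, with 4.38 and 5.65, and Tcf1Lef1KO-alone regions 10.7 kb before and 6.45 kb after it. Lat has WT-alone regions 29.8 and 39.1 kb downstream of its start and a Tcf1Lef1KO-alone region 8.73 kb downstream. Cd5 has none in WT alone and shares 1 Tcf1Lef1KO-alone region, chr19:10759646-10759872, with the window of Cd6.

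Fyn, whose RNA did not pass the test, has the WT-alone region with the largest fold enrichments of the set, 10.4 and 14.9, at chr10:39358536-39358799, 11.1 kb before its start. It also has Tcf1Lef1KO-alone regions 45.98 kb and 245 kb from its start, the second nearer to Traf3ip2. A further Txk region found in WT alone lay 71.3 kb from its start and nearer to Nipal1. Some regions of other combinations differed more in fold enrichment. Downstream of Fyn, chr10:39583268-39583634 had 18.5 and 18.0 in WT and 5.72 in Tcf1Lef1KO replicate 1 alone. Before Txk, chr5:72776161-72776488 had 14.2 and 14.9 in WT and 4.84 in Tcf1Lef1KO replicate 1 alone. Others had both Tcf1Lef1KO lists and 1 WT list, as chr5:72725495-72725755 in Txk, with 7.77 and 5.62 in Tcf1Lef1KO and 5.45 in WT replicate 2. Whether regions of 1 genotype are linked to the RNA of these genes was not tested.

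For each gene the shared region with the strongest peaks, by −log10 q, was also compared. The fold enrichments of the genotypes' lists overlapped for Lcp2, Cd5, Zap70, Lat and Cd7, and not for Lck, Cd6, Fyn and Txk. Inside Lcp2, chr11:34063666-34064505 had fold enrichments of 14.6 and 15.6 in Tcf1Lef1KO and 14.7 and 15.1 in WT. In the window of Cd5, chr19:10709349-10710310 had 16.9 and 16.5 in Tcf1Lef1KO and 17.5 and 16.9 in WT. In that of Zap70, chr1:36797456-36797871 had 20.9 and 18.2 in Tcf1Lef1KO and 21.6 and 20.8 in WT. The Tcf1Lef1KO lists were higher for Lck (21.2 and 21.5, against 20.0 and 19.3 in WT) and Cd6 (14.1 and 11.9, against 10.8 and 10.9). They were lower for Txk (19.2 and 19.7, against 20.4 and 21.7 in WT) and Fyn (16.5 and 16.4, against 18.1 and 18.7). The strongest shared regions of Lck, Lat, Txk, Cd6 and Cd7 have the start of another gene as their nearest, and that of Fyn is the one over its own start.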

How the data were processed

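RNA reads were aligned with HISAT2 and quantified with StringTie on mm10, per the submitters' processing notes (versions not given). TPM, as deposited, sums to 1000000 in each library. The deposited FPKM column served as an alternative unit, and the deposited coverage column only for its ratio to FPKM, which was most often 2.638 and 2.63 in Tcf1Lef1KO and 2.412 and 2.122 in WT and follows depth. Read counts were not used, so no counting error could be given. ATAC peaks were called with MACS2 after Bowtie2, per the submitters' processing notes, in a list per library. The authors' peak caller gives each peak a fold enrichment (a ratio) and a −log10 q. Exon and intron positions were not used here. No source used here says if strand was used in quantification; Mir8119 lies in Lck and Mir7058 in Lat.

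TPM was summed per gene identifier, and log2(TPM + 1) of the 13228 genes with a mean of at least 1 TPM was compared with limma 3.58.1 in R 4.3.3 (lmFit, eBayes with an intensity trend, genotype as the only term, Benjamini-Hochberg adjustment over all tested genes, threshold 0.05). On simulated libraries with these genes' means, it called 100% of 100 genes with a log2 change of 1. It also called 100% of 100 with one of 2, and 14 unchanged genes. The changed genes were drawn only from those of higher mean level, and the simulated spread followed a smooth trend with level. That recovery therefore does not cover low genes or genes more variable than the trend, such as Cd6. An exact 0 can be a failed estimate: 5 genes were at 0 in 1 library and at 5 TPM or more in the other 3. The members, gene lists, tests and alternatives were chosen with earlier results of these data known. In each list the called genes with the largest change and non-overlapping groups were named, up to 8 for the proximal list and 4 for the others, with up to 3 of the highest genes that did not pass; Syk, Dok1, Skap2, Spn and genes named at 0 or under the filter were looked up after their values were seen, and some list genes are not reported here by name. Peaks overlapping by 1 base or more were joined into regions, and gene windows reach 50 kb beyond the gene span. Promoter sequences came from RefSeq (GRCm38.p6). Other pseudocounts, filters, units, scalings, a replicate block and the removal of each library were tried, as were other peak thresholds, overlaps and windows.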

Additional observations from a re-analysis of the deposited data

How the results depend on the processing

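Lck, Lat, Lcp2, Cd5 and Cd7 stayed lower and past the threshold in 14 of 14 RNA alternatives each; the highest limma adjusted p was 0.0498, for Cd5 with no filter on low values. Fyn passed in 0 of 14, with adjusted p from 0.0539 to 0.276. The Cd6 log2 change was 0.08 without Tcf1Lef1KO replicate 2 and 0.34 without WT replicate 1, the sign opposite to that in all 4 libraries, and it ranged from −0.436 to 0.338 with 1 library left out. The replicate block called the same 5 genes lower, and it changed the proximal list's count of higher genes to 0. Over all genes the block gave 1798 lower and 3072 higher calls. Across genes, deviations of same-numbered libraries from their group means correlated at 0.0043. That value shows no strong shared shift, but it cannot tell whether same-numbered libraries were cultured or processed together.

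Counts over all genes were 1026 lower and 1357 higher with no filter, and 1088 to 1450 lower and 2005 to 2242 higher when 1 library was left out. Lower calls were 36.8% of all calls, and 46.8% with quantile normalization, 50.6% with median-ratio scaling, 45.7% without Rpph1, an abundant non-coding RNA whose level was lower in Tcf1Lef1KO, and 43.1% with no filter. The proximal list's count of higher genes was 0 with no filter, quantile normalization, median-ratio scaling and Rpph1 left out, and 0 to 1 when 1 library was left out; the 1, without WT replicate 1, was Sla and not Dok1. Of the genes that did not pass, Lyn changed by −0.0578 with quantile normalization, −0.0651 with median-ratio scaling and −0.0285 without Rpph1. Hcls1 changed by −0.00743 with FPKM, −0.147 with quantile normalization, −0.0863 with median-ratio scaling, −0.0494 without Rpph1, and by −0.0697 to 0.102 when 1 library was left out. Cd48 changed by −0.0918 with quantile normalization and −0.0146 with median-ratio scaling. With 1 library left out, Cd8a changed by −0.601 to 0.018 and Cd27 by −0.288 to 0.261. The cause was not tested. Of 53 called list genes named by the rule or looked up, 16 lost the call under at least 1 alternative and 0 changed direction.

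Regions in the 9 windows numbered 3 Tcf1Lef1KO alone and 16 WT alone with −log10 q of at least 10, 3, 2 and 47 (shared) in gene spans alone, 5, 3 and 70 within 10 kb, and 17, 16 and 210 within 100 kb. With 1 list left out, 15 to 20 were Tcf1Lef1KO alone and 14 to 19 WT alone. A shared region covered 8 starts in every case. With 2 libraries a group and no read counts, small RNA differences and differences in peak height could not be resolved.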
